A study of Homo sapiens with 6 samples.

Results

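The NDRG family (N-myc downstream regulated genes) has 4 members, NDRG1, NDRG2, NDRG3 and NDRG4, and the counts of these 4 genes, out of 61228 gene names measured, are described here in MDA-MB-231 cells, a triple-negative human breast cancer line, grown as 3D cultures in collagen I. The members were chosen by name, after NDRG1 was known from these libraries as one of the most reduced transcripts. The difference between control and knockout had thus been used to choose the family, and its values for the 4 members are given as a description. How many members the test across all genes called is printed once, beside the share of all genes called, and supports nothing here.

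The comparison had 3 libraries of control cells, nucleofected with Cas9 and control guide RNAs, and 3 libraries of knockout cells (KO), nucleofected with Cas9 and guides against the ETS transcription factor genes ETV1, ETV4 and ETV5. Both groups had received Cas9 and were cultured in collagen I, and the sample titles of the KO group name ETV4 alone. The labels do not say whether the KO libraries, which share the tag c39, come from 1 clone, whether replicates are separate cultures, or which collagen concentration of the protocol each culture had. The p-values below therefore measure the spread between these libraries, which may be technical.

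NDRG proteins share an alpha/beta hydrolase fold but lack the catalytic residues of the hydrolases. NDRG1 is induced by low oxygen, iron depletion and differentiation, is repressed by MYC proteins, is phosphorylated by the kinase SGK1 and then GSK3, and is lost in a hereditary neuropathy; in breast and other cancers it has been studied mainly for its effects on invasion and spread. NDRG2 is best known as a MYC-repressed gene of brain, muscle and liver that is often silenced in tumours. NDRG3 protein is destroyed through the prolyl hydroxylase EGLN1 and VHL when oxygen is present and binds lactate, and NDRG4 is a gene of brain and heart whose promoter is methylated in colorectal cancer.

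Upstream sequence is shown for the members held in the RefSeq promoter table (GRCh38.p14), NDRG4 and NDRG2, so that the letters before their starts can be read beside their counts. Of the windows of each gene, 1 is shown. Each stretch lies within the 250 bases before an annotated start and outside annotated exons, reads 5′ to 3′ on the gene's strand, and has in capitals the core letters read by ETS factors, GGAA or its reverse complement.
NDRG4, chr16:58463465-58463630, plus strand: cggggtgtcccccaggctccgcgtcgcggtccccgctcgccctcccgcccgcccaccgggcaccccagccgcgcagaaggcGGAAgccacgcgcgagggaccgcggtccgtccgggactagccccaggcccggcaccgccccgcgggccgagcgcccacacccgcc
NDRG2, chr14:21070873-21071122, minus strand: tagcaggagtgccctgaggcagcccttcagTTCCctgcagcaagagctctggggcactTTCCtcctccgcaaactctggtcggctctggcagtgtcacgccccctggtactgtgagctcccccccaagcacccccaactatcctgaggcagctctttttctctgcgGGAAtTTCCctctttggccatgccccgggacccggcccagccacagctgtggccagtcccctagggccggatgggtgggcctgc

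The NDRG4 stretch holds 1 GGAA core, within the longer match CGGAAG, and 27 CpG dinucleotides; the 250 bases it comes from hold 40 CpG, against a median of 11 over all 35116 windows of the table. It is the most CpG-rich of the 4 NDRG4 windows and the one with CGGAAG, and the others hold 29, 7 and 3 CpG. The NDRG2 stretch holds 4 cores and 7 CpG, and the other NDRG2 windows hold 23, 19, 14 and 4 CpG. It lies before the outermost annotated start of NDRG2, within the span of ARHGEF40, a gene on the opposite strand. The other NDRG2 windows lie between 21025062 and 21026560, so the stretch does not stand for the CpG content of the other starts. A GGAA core, on either strand, occurs in 92.7% of all windows of 250 bases and CGGAAG, which contains it, in 16.5%. The core of the hypoxia response element, ACGTG, and the MYC-type E-box, CACGTG, which contains that core, were searched on both strands and occur in 18.5% and 6.34% of windows; these letters are in none of the 4 NDRG4 and 5 NDRG2 windows. A match is a description of the letters and was not linked to binding here.

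On GRCh38, GENCODE release 29 places NDRG1 (ENSG00000104419) on chromosome 8 at 133237171 to 133302022, minus strand, and NDRG2 (ENSG00000165795) on chromosome 14 at 21016763 to 21070872, minus strand. NDRG3 (ENSG00000101079) lies on chromosome 20 at 36651766 to 36746078, minus strand, and NDRG4 (ENSG00000103034) on chromosome 16 at 58462846 to 58513628, plus strand. The table holds 1 count per gene and library, so transcripts from different starts of a gene were not separated. No 50-base word of the annotated transcripts was common to 2 family members. Of such words, 0 of 10385 in NDRG1, 0 of 11113 in NDRG4, 2.43% in NDRG3 and 3.00% in NDRG2 also occurred in transcripts of other genes.

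Library totals ran from 18042601 to 23232770 counts, and levels are given as CPM, the usual per-library scaling of counts, with TMM factors. A gene without a read could have up to 3 counts, or 0.128 to 0.165 CPM depending on the library; limits and intervals cover counting error only. ETV1 was at 213 to 238 CPM in the controls and 135 to 155 CPM in KO, ETV4 at 91.4 to 95.3 and 61.5 to 65.5 CPM, and ETV5 at 108 to 117 and 112 to 114 CPM. ETV1 and ETV4 were lower in KO (log2 fold changes of -0.65 and -0.56, edgeR adjusted p of 0.00125 and 6.12e-04) and ETV5 did not pass (0.01, SE 0.06), which does not show how far each gene was disrupted. Markers of the line itself (VIM, CD44, AXL, CAV1, KRT8, KRT18) summed to between 8175 and 10170.5 CPM in control and 7413 and 8878 CPM in KO. Most of that was VIM (4756 to 7290 CPM). The log2 fold changes of VIM and AXL were -0.30 and -0.13. Those of CD44, KRT18, KRT8 and CAV1 were 0.35, 0.26, 0.19 and 0.16, and none of the 6 genes passed edgeR's test. The 6 luminal markers summed to between 28.7 and 37.4 CPM. Nearly all of that was EPCAM (17.3 to 22.5 CPM), GATA3 (8.84 to 12.3 CPM) and FOXA1 (1.19 to 2.84 CPM), while ESR1, PGR and CDH1 were below 1 CPM. The 3 leukocyte markers summed to at most 0.646 CPM, with CD3E at 0, and the 3 endothelial markers to between 6.12 and 7.38 CPM in control and 3.08 and 4.88 CPM in KO, nearly all of it PECAM1, with CDH5 at 0. The 4 fibroblast markers summed to between 3.61 and 4.00 CPM in control and 2.15 and 2.91 CPM in KO. The cultures were of the MDA-MB-231 line, and these low levels are not read as cells of other types. Their part in the results was not tested. In bulk RNA, fewer cells with a transcript and less RNA per cell cannot be told apart. Replicate 3 of both groups stood apart from replicates 1 and 2 across all genes, and values without these libraries are given where they differ.

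NDRG1 was the abundant member in control cells and was 6.03-fold lower in KO. It measured 594, 550 and 586 CPM in control replicates 1, 2 and 3 and 93.5, 93.5 and 99.8 CPM in KO replicates 1, 2 and 3. All 3 KO values lay far below all 3 control values, and the libraries of a group differed little among themselves. The means were 577 ± 23.2 and 95.6 ± 3.64 CPM (SD, n = 3 each), with a log2 fold change (KO over control) of -2.59 (SE 0.07). In raw counts this was 36558 reads over the controls and 5359 over the KO libraries.

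Among the 14704 genes that passed the filter on low counts, NDRG1 stood 205th by mean CPM in control and 2484th in KO, and its log2 fold change was the 12th lowest. Of the 204 genes at least as abundant in control, none had a lower log2 fold change than NDRG1, and the lowest among them was LAMA5, a laminin chain, at -1.01. These ranks describe the contrast that chose the gene. The plot of fold change against level shows NDRG1 apart from the other genes of its abundance.

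**Figure D1:**
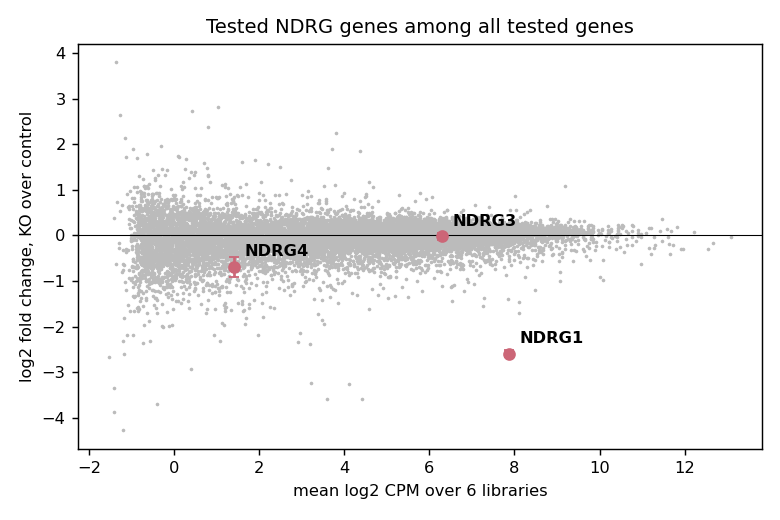
Each grey point is 1 of 14704 tested genes, with its mean log2 CPM over the 6 libraries on the x axis and its log2 fold change, KO over control, on the y axis; red points are NDRG1, NDRG3 and NDRG4 with the SE as bars. NDRG1 lies at -2.59, NDRG4 at -0.69 and NDRG3 at -0.02.

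NDRG3, the broadly expressed member, was measured at close levels in both groups. Control replicates 1, 2 and 3 gave 81.1, 82.9 and 74.1 CPM, and the KO replicates gave 81.0, 79.4 and 73.6 CPM. The groups overlapped, and in each the lowest value was that of replicate 3. The means of 79.3 ± 4.67 and 78.0 ± 3.90 CPM (SD, n = 3 each) differed by less than the spread between libraries, with a log2 fold change of -0.02 (SE 0.07), which does not show that the levels are equal.

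NDRG4 was expressed at a low level and was 1.62-fold lower in KO. It measured 2.93, 3.61 and 3.27 CPM in the controls, from 62, 67 and 77 reads, and 1.66, 1.87 and 2.53 CPM in KO, from 31, 36 and 46 reads. The groups did not overlap, but the highest KO value and the lowest control value were close. For KO replicate 3 the exact Poisson 95% interval was 1.85 to 3.38 CPM and for control replicate 1 it was 2.25 to 3.76 CPM, so counting error covers the gap between these libraries. The means were 3.27 ± 0.34 and 2.02 ± 0.46 CPM (SD, n = 3 each), with a log2 fold change of -0.69 (SE 0.21). With both replicate 3 libraries removed (an alternative added once the data had been seen) it was -0.88.

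NDRG2 was at the limit of detection. It had 3, 2 and 3 reads in the controls and 5, 3 and 2 reads in KO, which is 0.108 to 0.142 CPM and 0.1101 to 0.268 CPM. The groups overlapped, and the totals of 8 and 10 reads have exact Poisson 95% intervals of 3.45 to 15.8 and 4.80 to 18.4 reads. NDRG2 did not pass the filter on low counts, and no fold change is given for it. Its gene body overlaps several annotated genes on the opposite strand, of which ARHGEF40, at 37.5 ± 0.64 CPM in control and 36.4 ± 1.83 CPM in KO (SD, n = 3 each), was the one that passed the filter. How reads in shared stretches were assigned is not given in the sources used here.

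**Figure D2:**
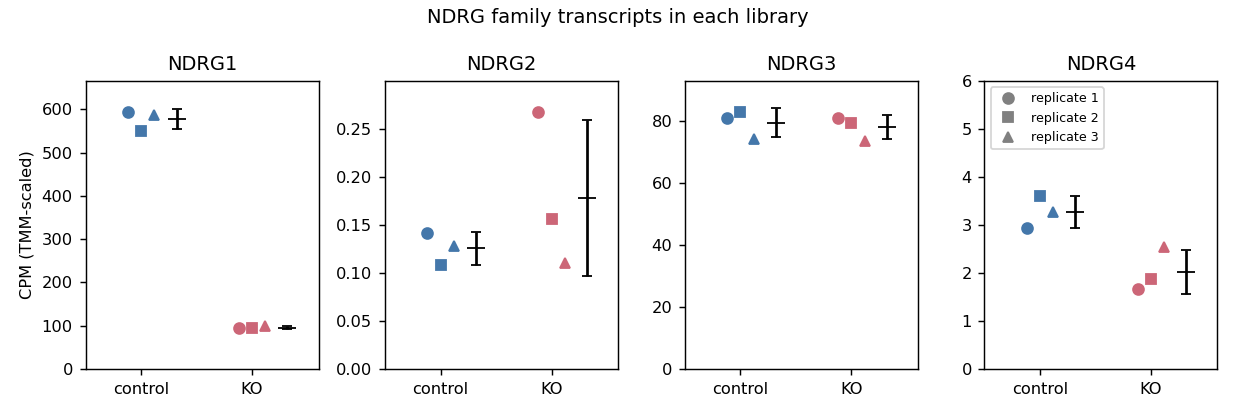
Each panel shows 1 NDRG gene in CPM, scaled with TMM factors, on its own axis from 0, with 1 symbol per library (shape gives the replicate number) and the mean with SD in black. NDRG1 is at 550.2 CPM or more in every control and at 99.8 or less in every KO library, NDRG3 stays between 73.6 and 82.9 CPM, NDRG4 is lower in each KO library and NDRG2 stays under 0.27 CPM.

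With 3 of the 4 members past the filter on low counts, 2 of the 3, NDRG1 and NDRG4, had KO values that all lay below the control values. Of all tested genes 16.8% did so, 14.9% had KO values all above, and 31.7% did not overlap in either direction. In edgeR's quasi-likelihood test over all genes (adjusted p below 0.05), 1 of the 3, NDRG1, was among the genes called, against 9.70% of all tested genes, and with the replicate number as a block 2 of the 3 were, NDRG1 and NDRG4, both lower, against 33.9% called and 16.7% called lower. The family was chosen on this contrast, so nothing is read from these counts. The block takes same-numbered libraries as pairs, which the labels do not state and these data cannot show for replicates 1 and 2. The median log2 fold change of the 3 members, -0.69, is the value of NDRG4 itself, beside 0.00 over all tested genes. Nothing is read from this median either.

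Per kilobase of annotated exon, which allows levels of different genes to be set side by side, NDRG1 led in control cells. Its level was 58.7 ± 2.36 CPM per kilobase, followed by NDRG3 at 24.4 ± 1.44, NDRG4 at 0.339 ± 0.0352 and NDRG2 at 0.0166 ± 0.00226 (SD, n = 3 each). In KO the order was NDRG3 at 24.0 ± 1.20, NDRG1 at 9.73 ± 0.371, NDRG4 at 0.209 ± 0.0472 and NDRG2 at 0.0236 ± 0.0107 CPM per kilobase. Neighbours in each of these orders did not overlap between libraries.

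The relation of NDRG1 to NDRG3 is free of library scaling but depends on the length used. The ratio of their levels per kilobase was 2.42, 2.19 and 2.62 in the controls and 0.382, 0.389 and 0.448 in KO. NDRG1 has 29 annotated transcripts, whose exons together span 9.823 kilobases, while the longest has 3.983; for NDRG3 these are 3.248 and 2.978 kilobases. With the longest transcript as the length, the ratio was 5.48, 4.96 and 5.91 in the controls and 0.863, 0.880 and 1.01 in KO. NDRG1 was thus above NDRG3 in every control library with either length, and in KO it was below NDRG3 with the union of exons and near it with the longest transcript.

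The share of NDRG1 in the family's summed level per kilobase was 70.5%, 68.4% and 72.0% in the controls and 27.5%, 27.8% and 30.7% in KO. The control and KO shares did not overlap. The share depends on the length used, and with the longest transcript it averaged 84.1% over the controls and 47.4% over the KO libraries. NDRG3 made up most of the rest in both groups, since NDRG4 and NDRG2 together were below 1 CPM per kilobase in every library.

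**Figure D3:**
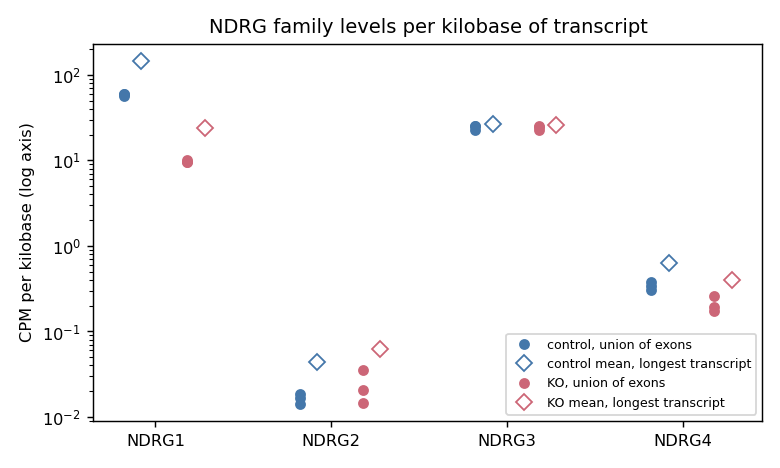
Points give the CPM per kilobase of exon in each library for the 4 NDRG genes, and open diamonds give the group mean when the longest transcript is used as the length; the y axis is logarithmic. NDRG1 lies above NDRG3 in control and near or below it in KO, and NDRG4 and NDRG2 lie far below both.

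The nearest annotated protein-coding genes were measured beside each member. ST3GAL1, a sialyltransferase gene 152826 bases from NDRG1, fell from 108 ± 4.14 to 78.6 ± 1.45 CPM (edgeR log2 fold change -0.45 with SE 0.06, adjusted p = 0.00170; SD, n = 3 each), while CCN4, on the other side of NDRG1, had no read in any library, which allows up to 0.165 CPM. DSN1, a kinetochore gene 5713 bases from NDRG3, differed by 0.21 on the log2 scale (SE 0.06, edgeR adjusted p = 0.0764; with the replicate block, adjusted p = 4.72e-04). Beside NDRG4, the methyltransferase gene SETD6 differed by 0.22 on the log2 scale (SE 0.08, edgeR adjusted p = 0.1099; with the block, adjusted p = 0.0198) and GINS3, a replication factor gene, one of 0.27 (SE 0.08, edgeR adjusted p = 0.0754; with the block, adjusted p = 0.00595). The tested neighbours of NDRG4 and NDRG3 thus had values above 0, where NDRG4 was at -0.69. Without KO replicate 3, DSN1 and GINS3 passed (edgeR adjusted p of 0.0245 and 0.0479). In the other fits with 1 library left out they did not (edgeR adjusted p of up to 0.223 and 0.206). Beside NDRG2, the zinc finger gene ZNF219 differed by -0.52 on the log2 scale (SE 0.14, edgeR adjusted p = 0.0540), which passed with the block (adjusted p = 2.53e-07), with DESeq2 (adjusted p = 0.0147) and without control replicate 3 (edgeR adjusted p = 0.0353), while SLC39A2, a zinc transporter gene, had 2 reads in all.

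The genes whose profile over the 6 libraries was most like that of NDRG1 were found by the Euclidean distance between log2 CPM values centred on each gene's mean, among 10253 protein-coding genes with a mean of at least 5 CPM. They were INHBB, an activin subunit (distance 0.381), the dynein heavy chain gene DNAH11 (0.469), the phosphodiesterase gene PDE2A (0.677), the secreted cystatin gene CST4 (0.814) and ALDOC, an aldolase (0.864), where the median gene was at 3.21. Each was lower in KO, by between 3.85-fold (ALDOC) and 9.60-fold (CST4), which follows from the choice by likeness to NDRG1. With each group centred on its own mean, their correlations with NDRG1 ran from -0.23 (ALDOC) to 0.71 (CST4). Each was less abundant than NDRG1, with control means from 16.2 CPM for PDE2A to 53.4 CPM for CST4. CST4 belongs to a group of closely similar cystatin genes, so its share of reads is uncertain.

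For NDRG3 the nearest profiles were AARS1, an alanyl-tRNA synthetase (distance 0.0246), SPIDR, a DNA repair scaffold (0.0335), and TBCD, a tubulin-folding cofactor (0.0394), beside a median of 0.324. Like NDRG3, they had their lowest value of each group in replicate 3. For NDRG4 they were AMPD3, an AMP deaminase (0.218), the death-domain adaptor CRADD (0.260) and the junction gene AJM1 (0.281), beside a median of 1.02; in these 3 genes, as in NDRG4, the highest KO value was that of replicate 3. These distances describe 6 libraries of 2 groups and carry no test.

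**Figure D4:**
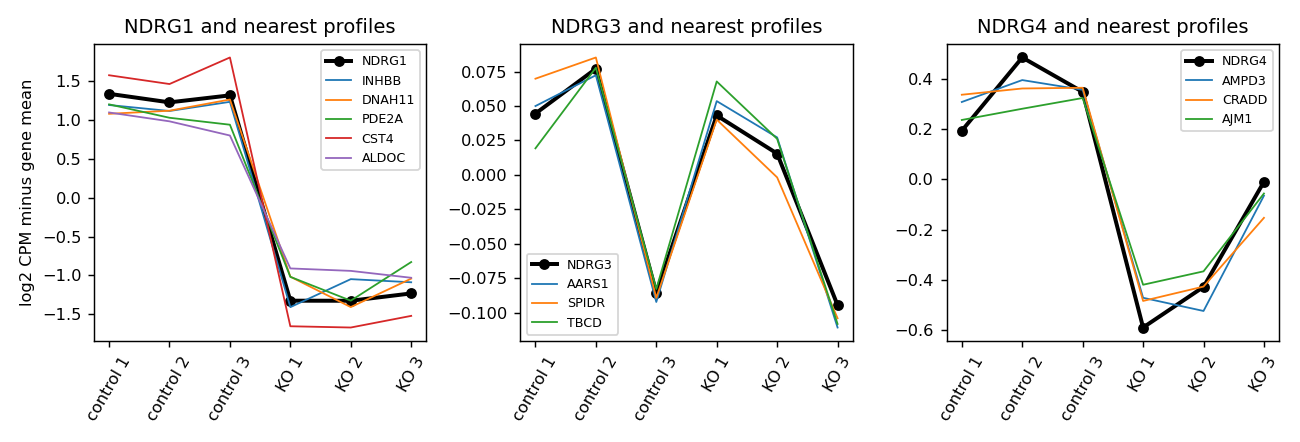
The y axis gives log2 CPM minus the gene's own mean, and the x axis gives the 6 libraries; lines join the libraries of a gene for reading and imply no order. NDRG1 and its nearest genes step down between control and KO, NDRG3 and its nearest genes are low in replicate 3 of both groups, and NDRG4 and its nearest genes are higher in KO replicate 3 than in KO replicates 1 and 2. The nearest genes were picked for this likeness.

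Genes that act on NDRG genes or proteins, bind the proteins or respond to the same cues were followed in 7 lists with 91 genes, of which 81 passed the filter. Over all genes, 9.70% passed edgeR's test at an adjusted p below 0.05, 6.42% lower and 3.28% higher in KO. With the replicate block 16.7% were lower and 17.2% higher, and with DESeq2 10.6% passed, 6.57% lower and 4.07% higher. Adjusted p-values with the block rest on a pairing by number that could not be shown for replicates 1 and 2. The median log2 fold change over all genes was 0.00. Over all genes 1427 passed, and 572 to 686 passed without any 1 of control replicates 1 and 2 and KO replicates 1 and 2. A call lost in those fits is thus common and not particular to a gene or list.

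Of the genes that sense oxygen and act upstream of NDRG1 and NDRG3, 1 of 9 tested fell and 8 did not pass, and the log2 fold changes had a median of -0.03. EGLN3, a HIF prolyl hydroxylase that is itself induced by low oxygen, fell from 3.73 ± 0.92 to 1.33 ± 0.30 CPM (edgeR log2 fold change -1.48 with SE 0.26, adjusted p = 0.00956; SD, n = 3 each). HIF1A, the oxygen-regulated subunit of hypoxia-inducible factor 1, averaged 370 ± 17.4 CPM in the controls against 432 ± 13.1 in KO (edgeR log2 fold change 0.23 with SE 0.06, adjusted p = 0.0572). It passed as higher with the replicate block (adjusted p = 1.09e-07), with DESeq2 (adjusted p = 0.0129) and without KO replicate 3 (edgeR adjusted p = 0.0298). VHL, the ubiquitin ligase subunit that binds hydroxylated HIF and NDRG3, differed by -0.06 on the log2 scale (SE 0.06, edgeR adjusted p = 0.629). EGLN1, the hydroxylase that acts with VHL on NDRG3 and is named here after its values were seen, averaged 22.4 ± 1.94 CPM in the controls against 16.5 ± 2.55 in KO (SD, n = 3 each), and each KO value lay below the control values. Its log2 fold change was -0.44 (SE 0.13) and did not pass (edgeR adjusted p = 0.0602), but did with the block (adjusted p = 1.42e-05), with DESeq2 (adjusted p = 0.0310) and without control replicate 3 (edgeR adjusted p = 0.0459). With the block, 2 genes of the list were lower and 2 higher. EGLN2 overlaps a read-through gene with RAB4B in the annotation, so the low counts of both (means of 0.786 and 0.0838 CPM in control) are uncertain.

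Among hypoxia-induced genes, with which NDRG1 is usually listed, 10 of 16 fell, 1 rose and 5 did not pass, with -0.65 as the median log2 fold change. CA9, the carbonic anhydrase of hypoxic tumours, fell (edgeR log2 fold change -3.59 with SE 0.11, adjusted p = 5.10e-07), as did ALDOC (-1.94, SE 0.11) and the mitophagy receptor BNIP3 (-1.46, SE 0.07). ADM, the adrenomedullin gene, rose (0.39, SE 0.06, edgeR adjusted p = 0.00463). The glucose transporter SLC2A1 (-0.05, SE 0.07) and VEGFA (0.02, SE 0.10), both abundant, did not pass. Several of these genes were known from the earlier results to move with NDRG1, so the count is no independent support of its direction.

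In the network of MYC and its partners, in which MYC proteins repress NDRG1 and NDRG2 and others oppose them, 2 of 11 tested genes fell, 2 rose and 7 did not pass, and the log2 fold changes had a median of -0.06. MYC itself averaged 239 ± 17.2 CPM in the controls against 235 ± 26.6 in KO (edgeR log2 fold change -0.02 with SE 0.09, adjusted p = 0.907; SD, n = 3 each), and MYCN had no read in any library, which allows up to 0.165 CPM. MXI1, a MAX partner that opposes MYC, fell from 38.1 ± 3.61 to 16.8 ± 1.51 CPM (edgeR log2 fold change -1.18 with SE 0.10, adjusted p = 2.87e-04). MXD4, of the same group, fell (-0.26, SE 0.06), MXD1, also of that group, rose (0.45, SE 0.08), and MGA, a large MAX partner, rose (0.34, SE 0.09). Of these, MXI1 passed in all 6 fits with 1 library left out. MXD4 passed in none of the 6 (edgeR adjusted p of up to 0.144), MGA only without KO replicate 3 and otherwise had an edgeR adjusted p of up to 0.148, and MXD1 did not pass without control replicate 1 or 2 (edgeR adjusted p of up to 0.0586). MLXIP, a glucose-responsive partner of MLX, differed by -0.10 on the log2 scale (SE 0.08, edgeR adjusted p = 0.436; with the block, adjusted p = 0.0406).

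Of the kinases that lead to NDRG1 phosphorylation, SGK, mTORC2, GSK3 and AKT genes, 2 of 13 tested rose, 1 fell and 10 did not pass, and the log2 fold changes had a median of 0.11; with the block 4 were higher. SGK1, the kinase that phosphorylates NDRG1, rose from 43.0 ± 2.15 to 54.7 ± 1.66 CPM (edgeR log2 fold change 0.34 with SE 0.07, adjusted p = 0.0141; SD, n = 3 each), the opposite direction to its substrate's transcript. The mTOR subunit gene MLST8 also rose (0.30, SE 0.06). SGK1 lost its call when control replicate 1, control replicate 2 or KO replicate 1 was removed (highest edgeR adjusted p 0.0762). MLST8 lost its call without any 1 of control replicates 1 and 2 and KO replicates 1 and 2 (highest edgeR adjusted p 0.0877). Such losses were common over all genes in these fits. The abundant AKT1 (0.11, SE 0.09, edgeR adjusted p = 0.498; with the block, adjusted p = 0.0190) and AKT2 (-0.05, SE 0.09) did not pass.

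In the list of lactate handling and RAF-ERK genes, which belong to the lactate response of NDRG3, 2 of 10 tested fell and 8 did not pass, and the log2 fold changes had a median of 0.03. LDHA, which makes lactate from pyruvate and is itself a hypoxia-induced gene, fell from 2484 ± 83.8 to 1609 ± 49.2 CPM (edgeR log2 fold change -0.63 with SE 0.06, adjusted p = 5.64e-04; SD, n = 3 each), and SLC16A3, the lactate exporter MCT4, from 650.2 ± 2.38 to 437 ± 17.1 CPM (-0.57, SE 0.06, edgeR adjusted p = 6.54e-04). NDRG3 transcripts, in the same libraries, overlapped between the groups. It is the NDRG3 protein that binds lactate, and protein was not measured. The kinase gene MAP2K2 (0.00, SE 0.27) did not pass. With the block 4 genes of the list were lower and 2 higher.

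Of 13 iron-handling genes, included because iron depletion induces NDRG1, 2 rose, 1 fell and 10 did not pass, and the log2 fold changes had a median of 0.04. The transferrin receptor gene TFRC rose from 243 ± 5.38 to 319 ± 9.48 CPM (edgeR log2 fold change 0.39 with SE 0.06, adjusted p = 0.00383; SD, n = 3 each), and FTH1, the ferritin heavy chain, from 563 ± 10.6 to 722 ± 20.5 CPM (0.36, SE 0.06, edgeR adjusted p = 0.00647). In the textbook scheme iron acts in opposite ways on the amounts of these proteins, an importer and a store. Protein was not measured here, and a response to iron was not tested. The ferric reductase STEAP3 fell (-0.27, SE 0.05) and did not pass without any 1 of control replicates 1 and 2 and KO replicates 1 and 2 (edgeR adjusted p of up to 0.0768). FTL, the ferritin light chain (0.21, SE 0.14), did not pass (edgeR adjusted p = 0.389). Of the fits with 1 library left out, FTL passed only without KO replicate 3 (edgeR adjusted p = 0.0126, otherwise up to 0.703). PCBP1, an iron chaperone, did not pass (0.04, SE 0.08). Without KO replicate 3, 4 genes of the list rose, and with the block 3 fell.

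Among trafficking and binding partners of NDRG proteins, 1 of 9 tested genes fell and 8 did not pass, and the log2 fold changes had a median of -0.09. The count of 1 lower gene was lost, to 0, without any 1 of control replicates 1 and 2 and KO replicates 1 and 2. The catenins CTNNA1 (-0.13, SE 0.10, edgeR adjusted p = 0.481) and CTNNB1 (0.09, SE 0.06, edgeR adjusted p = 0.412) did not pass, and passed in these directions with the block (adjusted p = 0.00159 and 0.0297). CDH1, the E-cadherin gene whose recycling NDRG1 serves in epithelial cells, did not pass the filter, with means of 0.165 CPM in control and 0.0881 CPM in KO, and BVES, a partner of NDRG4 in heart, had no read in any library, which allows up to 0.165 CPM; both are named here after their values were seen. With the block 2 genes of the list were lower and 1 higher.

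**Figure D5:**
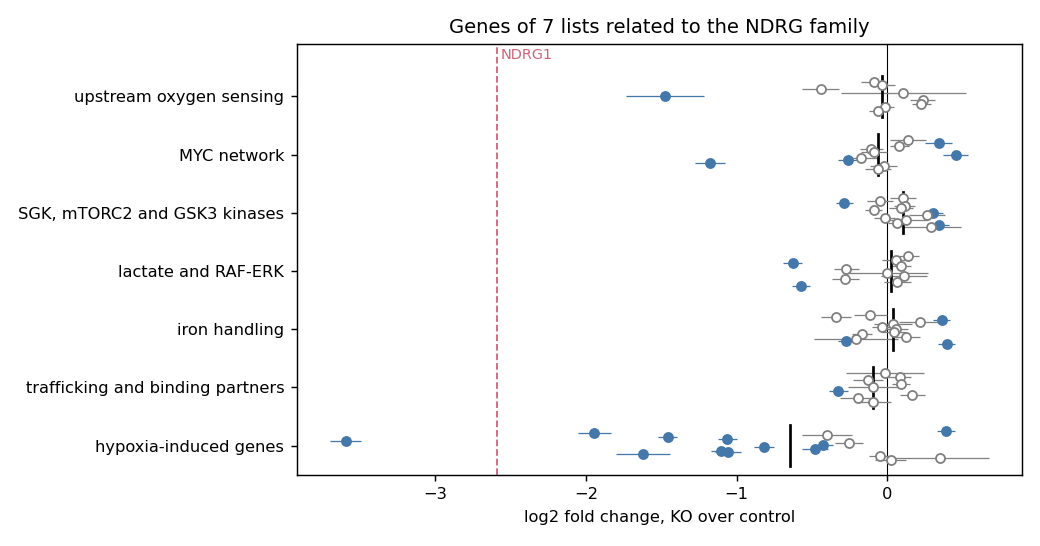
Each point is 1 tested gene of the 7 lists, with its log2 fold change (KO over control) and SE on the x axis; filled points passed edgeR's test, black bars mark the list medians and the dashed line marks NDRG1 at -2.59. The hypoxia-induced genes lie mostly below 0 with a median of -0.65, and the other medians lie between -0.09 and 0.11.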

How the data were processed

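The authors deposited raw counts of reads per gene from stranded poly(A) libraries; the submitters' processing notes list build hg38, STAR 2.7.9a and featureCounts, beside FastQC 0.11.9 and R 4.1.1. The annotation release and the strand setting were not given in the sources used here. Columns were matched to samples by library name, and groups and replicate numbers came from the titles. Genes were filtered with filterByExpr (14704 kept) and tested on the deposited counts with edgeR 4.0.16 (TMM, robust quasi-likelihood test, group as the single term, Benjamini-Hochberg threshold 0.05; R 4.3.3); CPM, fold changes and SE were computed here, with a prior count of 2 in log2 CPM. The main fit was also run on simulated counts drawn independently for each library, and the outcome is not given here. Those counts had no shared deviation of replicate 3, so the run does not cover it. Alternatives were DESeq2 1.42.0, its size factors, library totals, no filter, a replicate block and leaving out libraries.

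The members, lists and tests were chosen with earlier results of these data known. Genes named are the members; ETV1, ETV4 and ETV5; in each list up to 3 called genes per direction with the smallest adjusted p and the 2 most abundant uncalled; the nearest profiles (5 for NDRG1, 3 for NDRG3 and NDRG4); and neighbouring genes. Others are marked as chosen after their values were seen, or named as markers, as LAMA5 for its rank, or for uncertain counting (EGLN2, RAB4B). Some genes that the rule names are not reported here.

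Same-numbered libraries deviated together (correlations of 0.55, 0.45 and 0.83 across 10032 genes, which are not independent replicates, each above 0.1). The numbers were therefore taken to pair the samples in the replicate block. This pairing comes from these data, not the labels, and control replicates 1 and 2 each correlated best with the other number of KO (0.59 and 0.58). With values centred within groups and replicate 3 apart, replicates 1 and 2 tend to correlate whatever their pairing. The check thus shows a shared deviation of replicate 3 and cannot show that replicates 1 and 2 are paired. The p-values with the block carry this limit.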

Additional observations from a re-analysis of the deposited data

How the results depend on the processing

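The log2 fold changes of NDRG1, NDRG3 and NDRG4 moved by less than the spread between libraries under all 12 alternatives. With 1 library left out they ran from -2.63 to -2.57 for NDRG1, from -0.07 to 0.04 for NDRG3, whose sign was not stable, and from -0.87 to -0.56 for NDRG4, where 31 to 77 reads a library limit the precision. The replicate block gave -2.59, -0.02 and -0.70.

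Over all genes, 1427 passed. With the replicate block 4983 did (2461 lower, 2522 higher), and 3754 without both replicate 3 libraries (2023 lower, 1731 higher; chosen after the data were seen). With 1 library left out, 572 to 1741 passed, 436 to 964 lower and 136 to 777 higher; the cause was not tested. DESeq2 called 1564 genes.

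Oxygen-sensing genes counted 2 lower with no filter, DESeq2, the block and without both replicate 3 libraries. Of them 1 was higher with DESeq2, its size factors, library totals or without both replicate 3 libraries, and 2 with the block. The block gave 4 higher kinase genes, 4 lower and 2 higher lactate and RAF-ERK genes, 3 lower iron genes, and 2 lower and 1 higher partner genes. No filter gave 4 lower lactate genes and 2 lower iron genes, and DESeq2 gave 2 lower iron genes. Without both replicate 3 libraries, 4 lactate genes were lower, 2 iron genes lower and 4 higher, and 3 partner genes lower.

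With 1 library left out, oxygen-sensing genes counted 1 to 2 lower and 0 to 1 higher, the MYC network 1 lower and 0 to 2 higher, kinases 0 to 1 lower and 0 to 3 higher, lactate genes 2 to 3 lower, iron genes 0 to 2 lower and 2 to 4 higher, partners 0 to 1 lower, and hypoxia-induced genes 9 to 11 lower and 1 higher. The hypoxia counts stayed within 1.5 times under every alternative. For all of these the cause was not tested.

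With the longest transcript as length, the levels in control and KO were 145 and 24.0 CPM per kilobase for NDRG1, 26.6 and 26.2 for NDRG3, 0.639 and 0.395 for NDRG4 and 0.0436 and 0.0618 for NDRG2, and the NDRG1 share was 84.1% and 47.4%, which follows from the lengths used.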
